A study of Homo sapiens with 18 samples.

Results

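The 10 genes described here belong to cytokine receptor signalling through STAT5. They are the receptor genes *IL7R*, *IL2RG*, *FLT3*, *EPOR* and *CRLF2*, the kinase gene *JAK2*, the feedback inhibitor genes *SOCS1*, *SOCS2* and *CISH*, and the kinase gene *PIM1*. They were chosen by symbol, and all 10 were found among the 26941 genes of the count tables. RNA-seq had been carried out on 18 samples of 3 established B-cell precursor acute lymphoblastic leukaemia (BCP-ALL) cell lines. The lines were REH, which carries the *ETV6-RUNX1* fusion, 697 and RCH-ACV. Each line received 300 nM of either SOX11 siRNA or non-specific control siRNA by nucleofection, and RNA was collected after 48 h, with 3 samples in each of the 6 groups. No untransfected cells were compared, and REH was the only line with *ETV6-RUNX1*, so line and fusion cannot be told apart.

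Apart from FLT3, which is itself a tyrosine kinase, the receptors described here have no enzymatic activity of their own. When a cytokine brings the receptor chains together, the JAK kinases bound to them are activated and phosphorylate STAT5, which then enters the nucleus and switches on target genes. Among these targets are *CISH*, *SOCS1* and *SOCS2*, whose products dampen the signal, and *PIM1*, whose product is a survival kinase. Interleukin-7 signalling through IL7R and the common gamma chain (IL2RG) is a main growth signal of B-cell precursors, *CRLF2* and *JAK2* are altered in some BCP-ALL cases, and a high *EPOR* level is a known feature of *ETV6-RUNX1* leukaemia.

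The libraries held 7039594 to 16592492 counts, so that 3 counts corresponded to 0.181 to 0.426 counts-per-million (CPM). In the samples given SOX11 siRNA, *SOX11* was at 56.4% of control in REH, 53.0% in 697 and 62.7% in RCH-ACV. All 13 B-cell precursor markers had counts in every line. In REH, 12 of them had more than 3 counts in all 6 samples, and in 697 and RCH-ACV all 13 did. The T-cell markers summed to at most 0.580 CPM in any sample. The 7 myeloid markers summed to 15.1 to 17.03 CPM in REH controls and 9.48 to 10.997 with SOX11 siRNA. Most of this was *MPO*, which fell (edgeR adjusted p = 0.000237). In RCH-ACV the myeloid markers summed to 27.0 to 31.2 CPM in controls and 23.6 to 29.4 with SOX11 siRNA, nearly all of it *CSF1R*. The part of this list in the results was not tested. Control replicate 1 and SOX11 siRNA replicate 3 of 697, and SOX11 siRNA replicate 3 of RCH-ACV, stood apart from the other samples of their groups in a chi-square comparison of counts.

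In the control samples, the cytokine receptor genes set the lines apart more by *FLT3* and *EPOR* than by *IL7R* or *IL2RG*, and the inhibitor *SOCS2* also covered a wide range. *SOCS2* was 57.7-fold higher in REH than in RCH-ACV by mean CPM, *EPOR* 46.1-fold higher in REH than in 697, and *FLT3* 21.0-fold higher in 697 than in RCH-ACV. The corresponding ranges of *JAK2*, *IL7R* and *IL2RG* were 1.33-fold, 1.87-fold and 2.08-fold. By edgeR's quasi-likelihood test at an adjusted p under 0.05, REH differed from 697 in 6 of 9 members tested, 4 of them higher in REH and 2 lower, beside 76.3% of all genes (39.4% higher and 37.0% lower). REH differed from RCH-ACV in 9 of 9 members, 6 higher and 3 lower, beside 73.9% of all genes (36.2% and 37.7%). For 697 against RCH-ACV the count was 7 of 9, 4 higher and 3 lower, beside 64.2% of all genes (30.9% and 33.3%). With a difference of at least 1 on the log2 scale as well, the counts were 4 of 9 members beside 30.7% of all genes for REH against 697, 7 of 9 beside 25.6% for REH against RCH-ACV, and 4 of 9 beside 20.4% for 697 against RCH-ACV. Each line is 1 established culture, so the replicates measure the spread within a line, not that between leukaemias of a subtype. This holds for every p-value between lines given below.

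Levels of different genes were compared per kilobase of transcript, using the length of each gene's representative (MANE) transcript. On this scale *IL7R* had the highest level of the members in all 3 lines, at 181 ± 3.60 CPM per kb in REH, 188 ± 7.27 in 697 and 338 ± 7.05 in RCH-ACV (mean ± SD, n = 3), and *IL2RG* was next in each. The members below these 2 were ordered differently in each line. The next was *SOCS2* in REH with 57.3 ± 0.609 CPM per kb, *FLT3* in 697 with 36.8 ± 2.26, and *PIM1* in RCH-ACV with 5.30 ± 0.853.

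**Figure D1:**
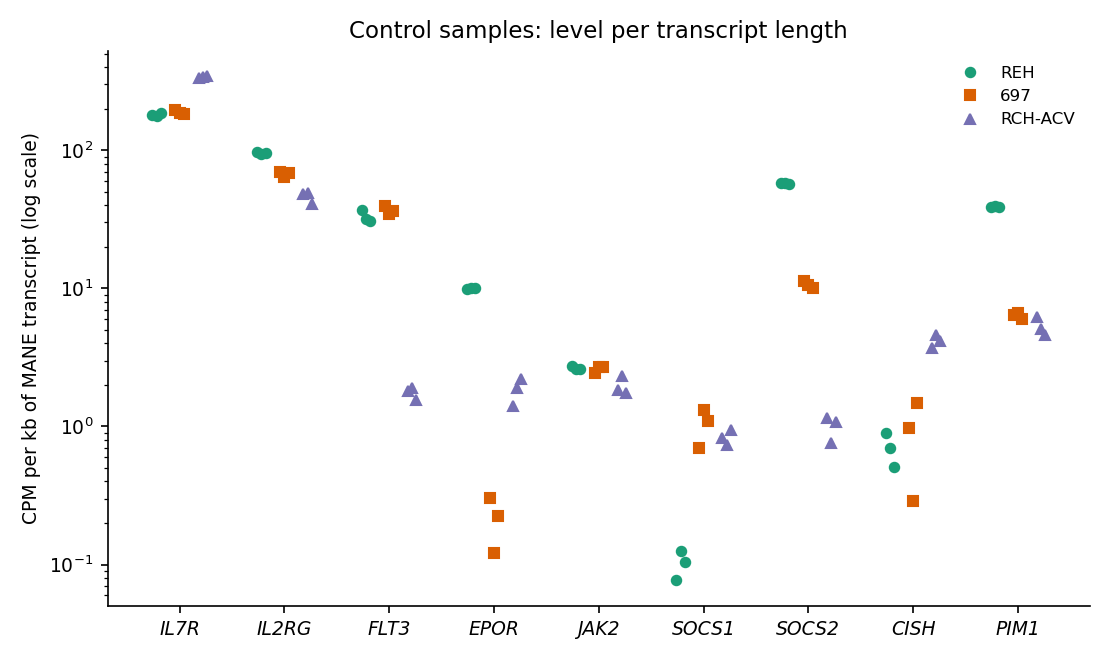
Level of 9 members in the 9 control samples, in CPM per kilobase of MANE transcript on a log scale, with 1 point per sample and colours and shapes for the lines. IL7R is at the top in each line, and the largest gaps between lines are those of SOCS2, EPOR and FLT3.

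SOX11 siRNA was compared with control siRNA within each line. In REH, 0 of 8 members tested passed edgeR's quasi-likelihood test at an adjusted p under 0.05, against 4.65% of all genes tested (2.64% higher with SOX11 siRNA and 2.01% lower). DESeq2 called 0 members in REH as well, and 3 (*IL7R*, *JAK2* and *SOCS2*) had an unadjusted edgeR p under 0.05. In 697, 2 of 7 members passed, *IL7R* and *SOCS2*, both lower, against 0.559% of all genes (0.0822% higher and 0.477% lower). In RCH-ACV, 2 of 9 passed, *IL7R* lower and *IL2RG* higher, against 7.66% of all genes (3.70% higher and 3.97% lower). A second reading of the same samples asks whether every SOX11 siRNA sample lay on 1 side of every control. In REH this held for 3 members below the controls and 2 above, beside 11.3% and 10.1% of all genes. For 697 it held for 2 below and 2 above, beside 7.42% and 5.69%, and for RCH-ACV for 1 below and 1 above, beside 13.7% and 12.2%. In such bulk samples, fewer cells expressing a gene and less RNA per cell cannot be told apart, and neither can loss of SOX11 and any other action of this siRNA.

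**Figure D2:**
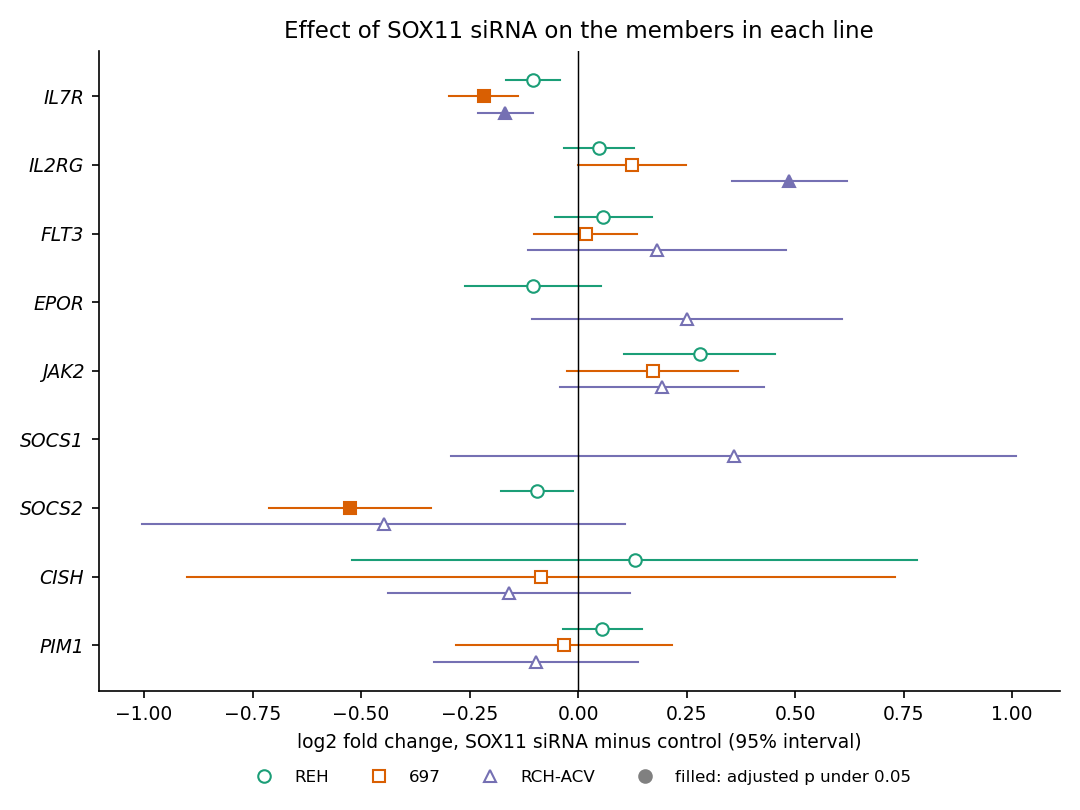
Effect of SOX11 siRNA on each member tested, as the log2 fold change (SOX11 siRNA minus control) with its 95% interval in REH (circles), 697 (squares) and RCH-ACV (triangles). Filled symbols mark an adjusted p under 0.05: IL7R in 697 and RCH-ACV, IL2RG in RCH-ACV and SOCS2 in 697.

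The interleukin-7 receptor chain gene *IL7R* (hg19 chr5:35852797-35879705, + strand) was lower with SOX11 siRNA in every line. The REH controls were at 825, 817 and 848 CPM and the SOX11 siRNA samples at 765, 795 and 748. The 697 controls were at 901, 845 and 842 CPM, against 726, 727 and 777 with SOX11 siRNA. In RCH-ACV the controls were at 1516, 1554 and 1579.8 CPM, against 1363, 1364 and 1413. In all 3 lines each SOX11 siRNA sample was below each control. The level fell to 86.0% of control in 697 (log2 fold change -0.22, SE 0.04, edgeR adjusted p = 0.0491) and to 89.0% in RCH-ACV (-0.17, SE 0.03, adjusted p = 0.00430), and was at 93.1% in REH (-0.10, SE 0.03, adjusted p = 0.0636). The call in 697 was near the threshold and was lost with RLE size factors, without a filter on low counts, with a replicate block and on leaving out any of 5 of the 6 libraries (adjusted p 0.0715 to 0.353 over these), while it was kept without the 2 libraries that stood apart (0.00193). The call in RCH-ACV held in all 16 alternatives. Between lines, *IL7R* was 1.89-fold higher in RCH-ACV than in REH and 1.80-fold higher than in 697 (adjusted p = 8.67e-14 and 5.42e-13), while REH and 697 overlapped (log2 difference -0.07, SE 0.04, adjusted p = 0.104). With library size alone in place of TMM scaling this difference turned to 0.0679 and passed (adjusted p = 0.0473).

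The summed level of the 13 B-cell precursor markers moved with siRNA too, but not in 1 direction. In REH it was 8326 to 8485 CPM in controls and 9025 to 9152 with SOX11 siRNA. The 697 controls had 5878 to 6231 CPM against 5063 to 5322 with SOX11 siRNA, and those of RCH-ACV 6513 to 6750 against 5415 to 6546. Its part in the *IL7R* result was not tested.

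The 250 bases upstream of the *IL7R* start (RefSeq, GRCh38.p14, chr5:35856641-35856890, + strand) are shown because *IL7R* was lower in all samples given SOX11 siRNA. The capitals mark, in order, TGTGGT, the core of the RUNX motif, and AGATAA, the GATA motif.
*IL7R*: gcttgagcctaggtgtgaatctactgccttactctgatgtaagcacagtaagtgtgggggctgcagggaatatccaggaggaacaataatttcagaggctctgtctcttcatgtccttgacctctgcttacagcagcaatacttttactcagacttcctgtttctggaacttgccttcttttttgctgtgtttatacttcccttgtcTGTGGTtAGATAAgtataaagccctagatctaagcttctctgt
The windows searched ran from 250 bases before to 50 after each start, on both strands, and were compared with 35116 promoters of the same length. The STAT motif TTCNNNGAA occurs in 7.66% of these. The RUNX core, searched as TGTGGT and also in the form TGCGGT, occurs in 19.6%. The SOX motif was searched as ACAAAG and also in the form ACAATG, with 24.5%, and the GATA motif AGATAA occurs in 10.3%. No match overlapped another in the members. The *IL7R* window held a RUNX match starting at -43 and a GATA match at -36 and none of the STAT or SOX letters.

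The common gamma chain gene *IL2RG* (hg19 chrX:70327254-70331958, - strand), whose product pairs with IL7R and several other receptors, rose in RCH-ACV. The controls of that line were at 71.1, 72.5 and 60.2 CPM and the SOX11 siRNA samples at 96.8, 97.5 and 90.4, with no overlap. This was 140.2% of control (log2 fold change 0.49, SE 0.07, edgeR adjusted p = 0.000315), and the call held in all 16 alternatives. In REH, the controls were at 139 to 143 CPM and the SOX11 siRNA samples at 143 to 149 (log2 0.05, 95% interval -0.03 to 0.13). In 697 they were at 95.4 to 102 and 102 to 117 CPM (log2 0.12, 95% interval -0.00089 to 0.25). The samples given SOX11 siRNA were higher than the controls in each of these lines too, by less than the test could tell from 0. The nearest SOX11 siRNA and control samples were at 143.111 and 143.038 CPM in REH and 102.188 and 102.165 CPM in 697. The effect differed between the lines (edgeR interaction test, adjusted p = 0.0139), whereas 0.727% of all genes tested did so and no other member did. Without SOX11 siRNA replicate 1, SOX11 siRNA replicate 2 or control replicate 3 of RCH-ACV, 0 members passed the interaction test. In controls *IL2RG* was 1.40-fold higher in REH than in 697 and 1.47-fold higher in 697 than in RCH-ACV (adjusted p = 7.35e-07 and 8.77e-07). A second annotated protein-coding gene without a symbol overlaps its exons on the same strand.

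*FLT3* (hg19 chr13:28577411-28674729, - strand) encodes the receptor tyrosine kinase for FLT3 ligand on early progenitors. It was low in RCH-ACV, where the controls were at 6.94, 7.27 and 5.93 CPM. The REH controls were at 141, 122 and 117 CPM and the 697 controls at 149.9, 133 and 139.9. No RCH-ACV sample came near the others, with *FLT3* 18.7-fold higher in REH and 21.0-fold higher in 697 (adjusted p = 1.59e-16 and 2.70e-16). REH and 697 overlapped, and the log2 difference of -0.16 (SE 0.07, adjusted p = 0.0333) lost its call with DESeq2 (adjusted p = 0.0558), with library size alone, or without REH control replicate 2 or 3 or 697 control replicate 1. The log2 fold change with SOX11 siRNA was 0.06 in REH (95% interval -0.05 to 0.17), 0.02 in 697 (-0.10 to 0.14) and 0.18 in RCH-ACV (-0.11 to 0.48), and the samples overlapped in each line.

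The erythropoietin receptor gene *EPOR* (hg19 chr19:11487883-11495018, - strand) was highest in REH. Its level was 24.03, 24.06 and 24.32 CPM in the REH controls, 3.41, 4.54 and 5.35 in RCH-ACV and 0.737, 0.294 and 0.540 in 697, where these were 6, 2 and 4 counts. The 3 lines did not overlap. REH was 5.39-fold above RCH-ACV (log2 difference 2.43, SE 0.13, adjusted p = 1.10e-11). Against 697, the ratio of summed counts, each over its library totals, was 49.0 (exact 95% interval 27.9 to 95.2, counting error only), and RCH-ACV was above 697 as well (adjusted p = 4.09e-07). *EPOR* thus also differed between the lines other than REH. The erythroid markers *HBB* and *GATA1* had 0 counts in all 6 REH samples, and 7 of the 10 erythroid markers did. The summed erythroid level was nonetheless highest in REH, at 1.03 to 2.11 CPM in its controls against 0 in 697 and at most 0.116 in RCH-ACV. Most of it was *SLC4A1*, an anion exchanger of red cells, at 0.776 to 1.41 CPM, with low counts of *ALAS2* and *KLF1*. The part of these in the *EPOR* result was not tested.

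With SOX11 siRNA *EPOR* was at 22.9, 21.6 and 22.4 CPM in REH, below each control, but the log2 fold change of -0.10 did not pass (95% interval -0.26 to 0.05, adjusted p = 0.572). In RCH-ACV it was 0.25 (-0.11 to 0.61), and in 697 the counts of 2 to 6 per library were too low for the test. Over the 18 samples, the 5 genes whose centred log2 CPM lay nearest to that of *EPOR* among 14025 were *PINLYP*, *FLJ16779*, *KCNMB4*, *PCDHB14* and *FUCA1*, with root mean square differences of 0.278 to 0.368. The controls of 697 had means of 0 to 0.0409 CPM for *PINLYP*, *FLJ16779*, *KCNMB4* and *PCDHB14*, under the floor of 3 counts. Those of RCH-ACV had 2.03 to 2.24 CPM. *FUCA1*, which encodes a lysosomal fucosidase and was the last of the 5, was at 69.5 ± 5.58 CPM in REH, 17.7 ± 0.527 in RCH-ACV and 1.53 ± 0.273 in 697 (SD, n = 3). This likeness is a description over 6 groups of shared libraries. *RGL3* overlaps *EPOR* on the same strand and had 0 counts in all control samples.

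The 250 bases upstream of the *EPOR* start (RefSeq, GRCh38.p14, chr19:11384315-11384564, - strand) are shown because its level set the lines apart. The capitals mark ACAAAG, a match to the SOX motif at -199, and TTATCT, the complement of the GATA motif AGATAA, at -78.
*EPOR*: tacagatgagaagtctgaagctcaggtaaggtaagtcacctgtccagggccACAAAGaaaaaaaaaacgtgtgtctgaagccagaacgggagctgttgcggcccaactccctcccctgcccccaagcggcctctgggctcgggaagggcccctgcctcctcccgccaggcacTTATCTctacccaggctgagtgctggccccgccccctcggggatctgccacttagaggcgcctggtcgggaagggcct
Neither the STAT nor the RUNX letters occur in the window of *EPOR*. Of the other receptors, *FLT3* had a RUNX match at -48 and *IL2RG* none of the 4 motifs.

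*CRLF2* (hg19 chrX:1314894-1331616, - strand), whose product joins IL7R in the receptor for TSLP, was listed at 0 counts in all 18 samples. It lies in the pseudoautosomal region that the X and Y chromosomes share. Of 18 protein-coding genes that the annotation names on both X and Y, 17 were listed at 0, and the remaining gene had 2 counts in all, whereas 29.9% of 779 other protein-coding genes of the X chromosome were at 0. The genes at 0 include *CSF2RA*, *IL3RA* and *IL9R*, which are cytokine receptor genes, and *CD99* and *SLC25A6*, which most cells use. The 0 of *CRLF2* is therefore given without a level or a limit, and its cause was not tested.

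The kinase gene *JAK2* (hg19 chr9:4984390-5129948, + strand), which acts below the erythropoietin and TSLP receptors, was at a low level for its length, with 2.64 ± 0.0716 CPM per kb in REH, 2.61 ± 0.142 in 697 and 1.98 ± 0.308 in RCH-ACV (SD, n = 3). REH controls were at 19.1, 18.2 and 18.2 CPM, and SOX11 siRNA samples at 24.1, 22.4 and 20.8. In 697 the values were 17.2, 18.9 and 18.9 against 20.5, 20.1 and 21.4 CPM. RCH-ACV had 13.0, 16.4 and 12.3 against 14.1, 15.7 and 17.3 CPM. The groups were apart in REH and 697 and overlapped in RCH-ACV. None of the lines passed by itself, with log2 fold changes of 0.28 (SE 0.09, edgeR adjusted p = 0.0736), 0.17 (SE 0.10, adjusted p = 0.757) and 0.19 (SE 0.12, adjusted p = 0.367) in this order. Without SOX11 siRNA replicate 3 of REH the change there passed (0.35, adjusted p = 0.0401). Among controls, *JAK2* was 1.33-fold higher in REH and 1.32-fold higher in 697 than in RCH-ACV (adjusted p = 0.00269 and 0.00579). The difference between REH and 697 was 0.01 (SE 0.11), and none of the 4 motifs occurs in its 4 promoters.

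*SOCS2* (hg19 chr12:93963590-93977263, + strand) encodes a feedback inhibitor that binds receptors of the growth hormone and related cytokine families. REH controls were at 138, 137 and 135 CPM, those of 697 at 27.1, 25.4 and 23.9, and those of RCH-ACV at 2.73, 1.82 and 2.56. The lines formed 3 separate steps. REH was 5.32-fold above 697 and 56.4-fold above RCH-ACV, and 697 was 10.6-fold above RCH-ACV (adjusted p = 3.47e-16, 5.99e-19 and 4.15e-13). *SOCS2-AS1*, a long non-coding RNA on the other strand, had the same order at 2.98 ± 0.512, 0.678 ± 0.179 and 0.0433 ± 0.0750 CPM (SD, n = 3). The library kit was stranded, but whether counting used the strand is not given in the sources used here.

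With SOX11 siRNA, *SOCS2* was at 17.3, 17.9 and 18.1 CPM in 697, below every control. This was 69.5% of control (log2 fold change -0.53, SE 0.10, edgeR adjusted p = 0.0407). The call was lost when any 1 of the 6 libraries was left out (adjusted p 0.0899 to 0.252), with a replicate block, with DESeq2 (0.0968) and with library size alone (0.0504), with the log2 fold change between -0.56 and -0.48 throughout. Without the 2 libraries of 697 that stood apart it was kept (-0.48, adjusted p = 0.0440). In REH the samples were at 129, 123 and 131 CPM, again below every control (log2 -0.09, SE 0.04, adjusted p = 0.245). RCH-ACV had 2.27, 1.26 and 2.18 CPM, which overlapped the controls (-0.45, 95% interval -1.004 to 0.11). The difference of the effect between lines had an unadjusted p of 0.00197 and an adjusted p of 0.132.

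*SOCS1* (hg19 chr16:11348274-11350061, - strand), an inhibitor that acts on the JAK kinases directly, was barely measured. REH samples held 0 to 2 counts each, at or under the 3 counts taken as the floor. The controls of 697 held 7, 11 and 10 counts (0.860, 1.61 and 1.35 CPM) and those of RCH-ACV 9, 7 and 10 (1.02, 0.909 and 1.16 CPM). The ratio of REH to 697 was 0.112 (exact 95% interval 0.0286 to 0.320, counting error only) and that of REH to RCH-ACV 0.129 (0.0328 to 0.373), while 697 and RCH-ACV overlapped (ratio 1.15, 0.653 to 2.05). An effect of SOX11 siRNA could be tested in RCH-ACV alone, where the log2 fold change was 0.36 with a 95% interval of -0.29 to 1.01.

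*CISH* (hg19 chr3:50643920-50649205, - strand), a classical STAT5 target that encodes an inhibitor of the same family, was at 7.51, 9.22 and 8.38 CPM in the RCH-ACV controls. In REH the controls were at 1.80, 1.41 and 1.03 CPM and in 697 at 1.96, 0.587 and 2.97, from 4 to 22 counts per library. RCH-ACV was above all samples of the other lines, 5.76-fold over REH and 4.42-fold over 697 (adjusted p = 8.60e-08 and 1.66e-06), and REH and 697 overlapped. *CISH* was thus highest in RCH-ACV, the line in which *SOCS2*, also an inhibitor downstream of STAT5, was lowest. With SOX11 siRNA the log2 fold change was 0.13 in REH (95% interval -0.52 to 0.78), -0.08 in 697 (-0.90 to 0.73) and -0.16 in RCH-ACV (-0.44 to 0.12). The intervals of REH and 697 are wide at these counts. *MAPKAPK3* overlaps *CISH* on the other strand and was more abundant, at 25.3 ± 0.958, 59.7 ± 7.15 and 70.2 ± 2.98 CPM in REH, 697 and RCH-ACV (SD, n = 3). Its means had the same order of lines as those of *CISH*. As for *SOCS2*, whether counting used the strand is not given, and the part of *MAPKAPK3* in the *CISH* levels was not tested.

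The 250 bases upstream of the *CISH* start (RefSeq, GRCh38.p14, chr3:50611775-50612024, - strand) are shown because, of the 8 members with a promoter to search, only this one held the STAT letters TTCNNNGAA. The other two members, *SOCS2* and *CRLF2*, were not searched. The capitals mark 4 such matches, starting at -241, -230, -129 and -112, and then ACAAAG, the SOX motif, at -86.
*CISH*: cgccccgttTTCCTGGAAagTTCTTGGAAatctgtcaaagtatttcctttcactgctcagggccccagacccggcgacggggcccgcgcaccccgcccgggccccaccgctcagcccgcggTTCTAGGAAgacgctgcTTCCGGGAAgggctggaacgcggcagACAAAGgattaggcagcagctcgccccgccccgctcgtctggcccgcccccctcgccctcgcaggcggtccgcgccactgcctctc
At least 4 STAT matches occur in 7 of the 35116 promoters, or 0.0199%. *SOCS1* and *PIM1* held none of the 4 motifs in this window.

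*PIM1* (hg19 chr6:37137928-37143204, + strand), which encodes a serine/threonine kinase induced by cytokines, was at 105, 107 and 105 CPM in the REH controls, 17.4, 17.9 and 16.1 in 697 and 16.8, 13.8 and 12.3 in RCH-ACV. REH was 6.12-fold above 697 and 7.29-fold above RCH-ACV (adjusted p = 2.30e-15 and 8.66e-16). The other two lines overlapped (log2 difference 0.25, SE 0.12, adjusted p = 0.0673, and 0.00867 without RCH-ACV control replicate 1). Its log2 fold change with SOX11 siRNA was 0.06 in REH (95% interval -0.03 to 0.15), -0.03 in 697 (-0.28 to 0.22) and -0.10 in RCH-ACV (-0.33 to 0.14), with overlapping samples in each. REH thus had the highest levels of *IL2RG*, *EPOR*, *SOCS2* and *PIM1* and the lowest of *SOCS1*.

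**Figure D3:**
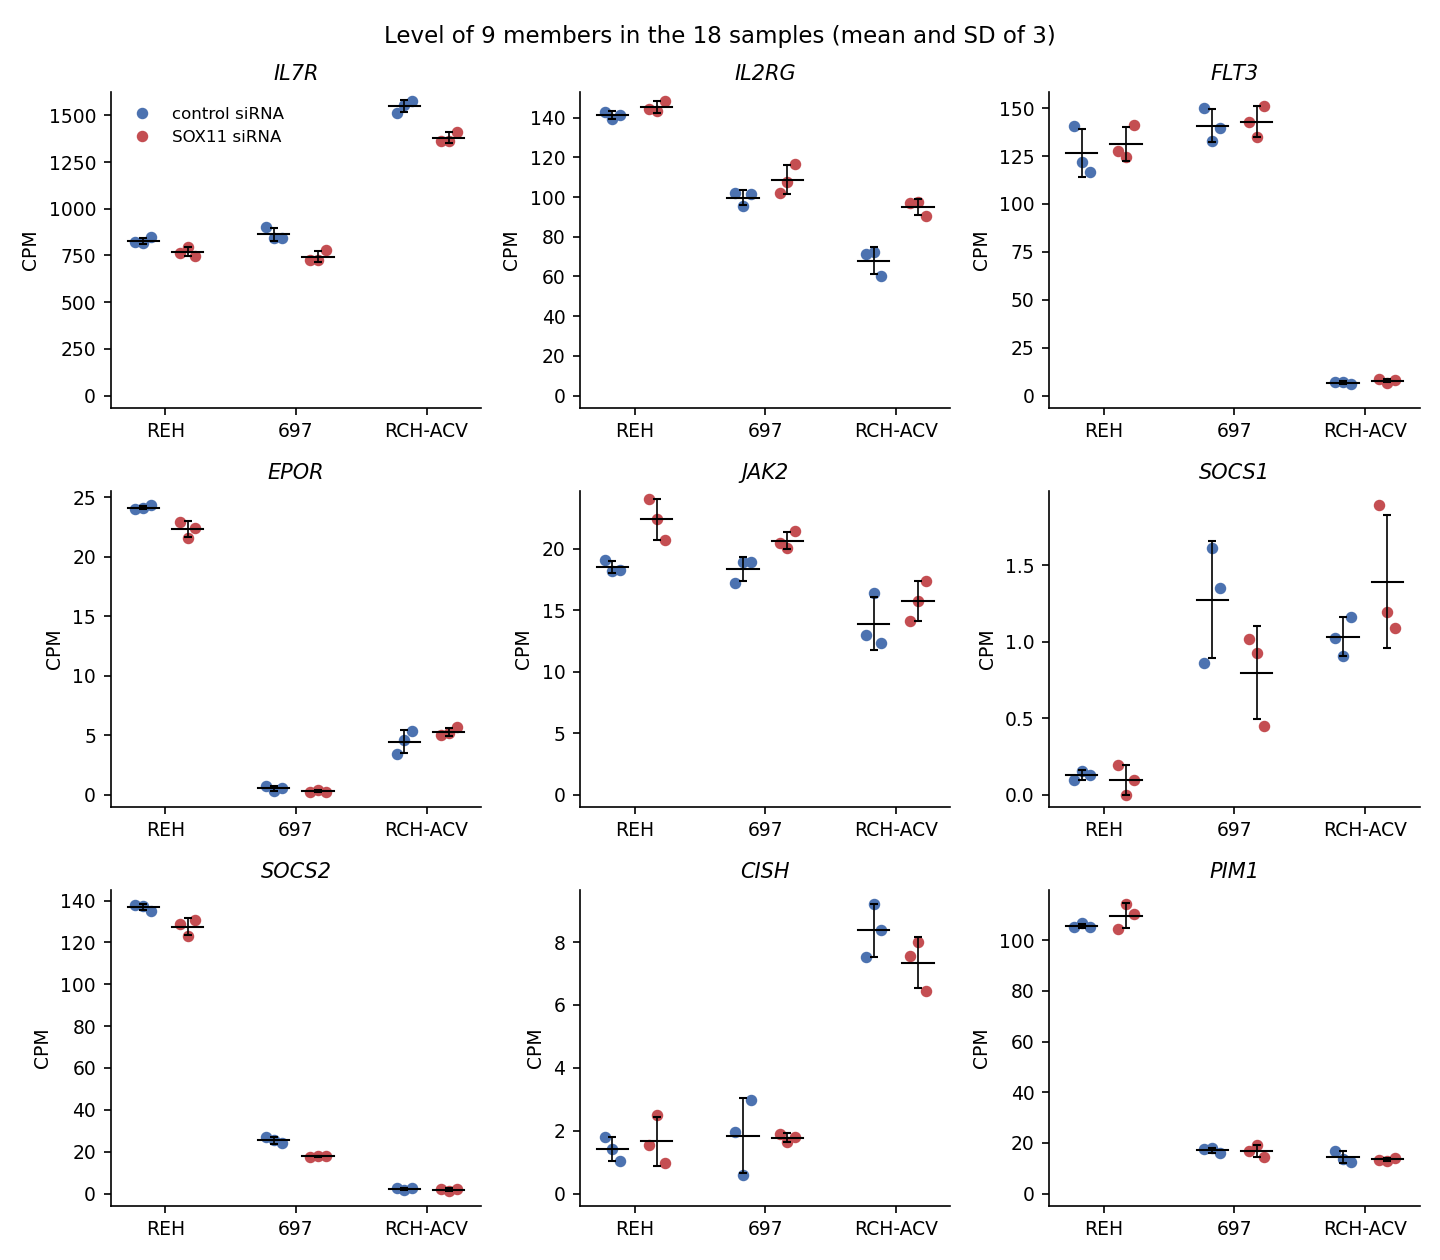
CPM of 9 members in all 18 samples, by line, with control siRNA in blue and SOX11 siRNA in red, horizontal lines for the mean and bars for the SD of 3 samples. The differences between lines exceed those between siRNAs for most members, and IL7R is lower with SOX11 siRNA in each line.

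A single fit over the 18 samples, with line as a covariate, gave 1 effect shared by the lines, here called the common fit. This shared effect is not the plain mean of the effects in the lines. The common fit was added after the results of each line were known, so it is no independent evidence for them. In this fit 4 of 9 members tested passed, 2 higher and 2 lower, against 9.02% of all genes (3.74% higher and 5.28% lower). *IL7R* (log2 fold change -0.16, SE 0.02, edgeR adjusted p = 2.89e-05) and *SOCS2* (-0.21, SE 0.06, adjusted p = 0.0174) were lower with SOX11 siRNA. *IL2RG* (0.20, SE 0.05, adjusted p = 0.00892) and *JAK2* (0.22, SE 0.06, adjusted p = 0.0152) were higher. All 4 had the same direction in the 3 lines and kept their call when any of the 18 libraries was left out and with a replicate block. *SOCS2* had its largest fitted change in 697 and *IL2RG* in RCH-ACV. The effect on *IL2RG* differed between the lines (edgeR interaction adjusted p = 0.0139), so its value here is 1 shared value for unlike effects. For *SOCS2* the interaction test gave an unadjusted p of 0.00197 and an adjusted p of 0.132. *FLT3*, *EPOR*, *SOCS1*, *CISH* and *PIM1* did not pass, with adjusted p of 0.616 to 0.943.

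The rest of the pathway was given by 5 lists of other genes. The ligands were scarcely expressed, with 8 of 17 at 0 everywhere and 1 to 3 testable in a comparison. In all 3 lines 0 ligands passed for SOX11 siRNA by edgeR, with 1 in RCH-ACV at an unadjusted p under 0.05. *IL7*, the ligand of IL7R, was at 0 in REH and 697 controls and under the floor in RCH-ACV (0.0812 CPM), and *FLT3LG* was at 1.32 to 1.54 CPM in the 3 lines. By contrast, the controls of each line had counts for STAT5 itself. In the order REH, 697 and RCH-ACV, *STAT5B* was at 97.1 ± 3.64, 225 ± 6.99 and 130.5 ± 2.88 CPM and *STAT5A* at 19.7 ± 2.68, 59.9 ± 3.23 and 36.7 ± 0.612 (SD, n = 3). The kinases that sit on IL7R and IL2RG were present too, *JAK1* at 142 ± 3.81, 210.4 ± 7.57 and 148 ± 4.22 CPM and *JAK3* at 28.0 ± 1.68, 19.8 ± 1.34 and 23.6 ± 1.12. The mean of *STAT5B* was lowest in REH, which had the highest means of *SOCS2* and *PIM1* and the lowest of *SOCS1* and *CISH*. Of the list of other genes known as STAT5 targets, 10 were tested by edgeR in the controls. Against 697, 6 of these were higher in REH and 1 lower, beside 39.4% and 37.0% of all genes. Against RCH-ACV, 3 were higher in REH and 4 lower, beside 36.2% and 37.7%. Phosphorylation of STAT5 was not measured.

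With SOX11 siRNA, 9 genes of these lists passed in at least 1 line, and 0 of them in 697. The shares of all genes called were 4.65% for REH, 7.66% for RCH-ACV and 0.559% for 697. Among other receptors, 0 of 16 tested passed edgeR in REH and in 697, where 2 and 1 had an unadjusted p under 0.05, and 4 of 21 passed in RCH-ACV. In RCH-ACV *IL12RB1* (log2 0.81, adjusted p = 0.0408) and *IL15RA* (0.75, adjusted p = 0.00788) rose, and *LIFR* (-0.93, adjusted p = 0.00558) and *KIT* (-1.21, adjusted p = 0.0236) fell. All of these were low, at 2.42 ± 0.611, 3.87 ± 0.246, 7.03 ± 0.692 and 3.91 ± 1.44 CPM in the controls (SD, n = 3). IL15RA is the private chain of the interleukin-15 receptor, which also uses the chain encoded by *IL2RG*. The median log2 change of the receptors tested was -0.041 in REH, 0.023 in 697 and -0.00085 in RCH-ACV, beside -0.0023, -0.0035 and 0.0051 over all genes tested.

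Of the other JAK kinases and STATs, 1 of 9 passed in REH. In 697 and RCH-ACV 0 of 9 passed edgeR, with 1 in each at an unadjusted p under 0.05. The gene that passed was *JAK1*, higher in REH at 163 ± 7.52 against 142 ± 3.81 CPM (log2 0.21, SE 0.04, edgeR adjusted p = 0.00340). Of the other inhibitors and phosphatases, 1 of 17 passed in REH and 2 of 16 in RCH-ACV, whereas 697 had 0 of 17, with 3 at an unadjusted p under 0.05. The shares of 5.88% in REH and 12.5% in RCH-ACV stand beside 4.65% and 7.66% of all genes. *PTPN6*, encoding the phosphatase SHP-1 that dephosphorylates JAK kinases, was higher in REH (log2 0.30, adjusted p = 0.0336) and RCH-ACV (0.46, adjusted p = 0.000315), and did not pass in 697 (0.26, adjusted p = 0.217). *DUSP6*, which encodes an ERK phosphatase, fell in RCH-ACV from 114 ± 4.56 to 81.1 ± 3.08 CPM (log2 -0.49, adjusted p = 4.69e-05) but had a log2 change of -0.02 in REH, and its effect differed between lines (interaction adjusted p = 0.00468).

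Of the other genes known as STAT5 targets, 2 of 11 passed in REH, or 18.2% beside 4.65% of all genes. Of 9 tested in 697, 0 passed at an adjusted or an unadjusted p under 0.05, beside 0.559% of all genes, and of 8 in RCH-ACV 0 passed and 3 had an unadjusted p under 0.05. *MYC* fell in REH from 233 ± 9.21 to 195 ± 2.94 CPM (log2 -0.25, SE 0.04, edgeR adjusted p = 0.000227), and differed between lines (interaction adjusted p = 0.00536), since RCH-ACV had 0.09. *CCND2*, encoding a D-type cyclin, was at 1.80 ± 0.545 CPM in the REH controls and 0.582 ± 0.203 with SOX11 siRNA (log2 -1.68, adjusted p = 0.00758). It was low, with at most 25 counts in any REH library. *PIM2*, *PIM3*, *BCL2L1*, *BCL6*, *MCL1* and *CDKN1A* did not pass in any line. The median log2 change of the targets tested was -0.02 in REH, -0.01 in 697 and 0.08 in RCH-ACV.

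**Figure D4:**
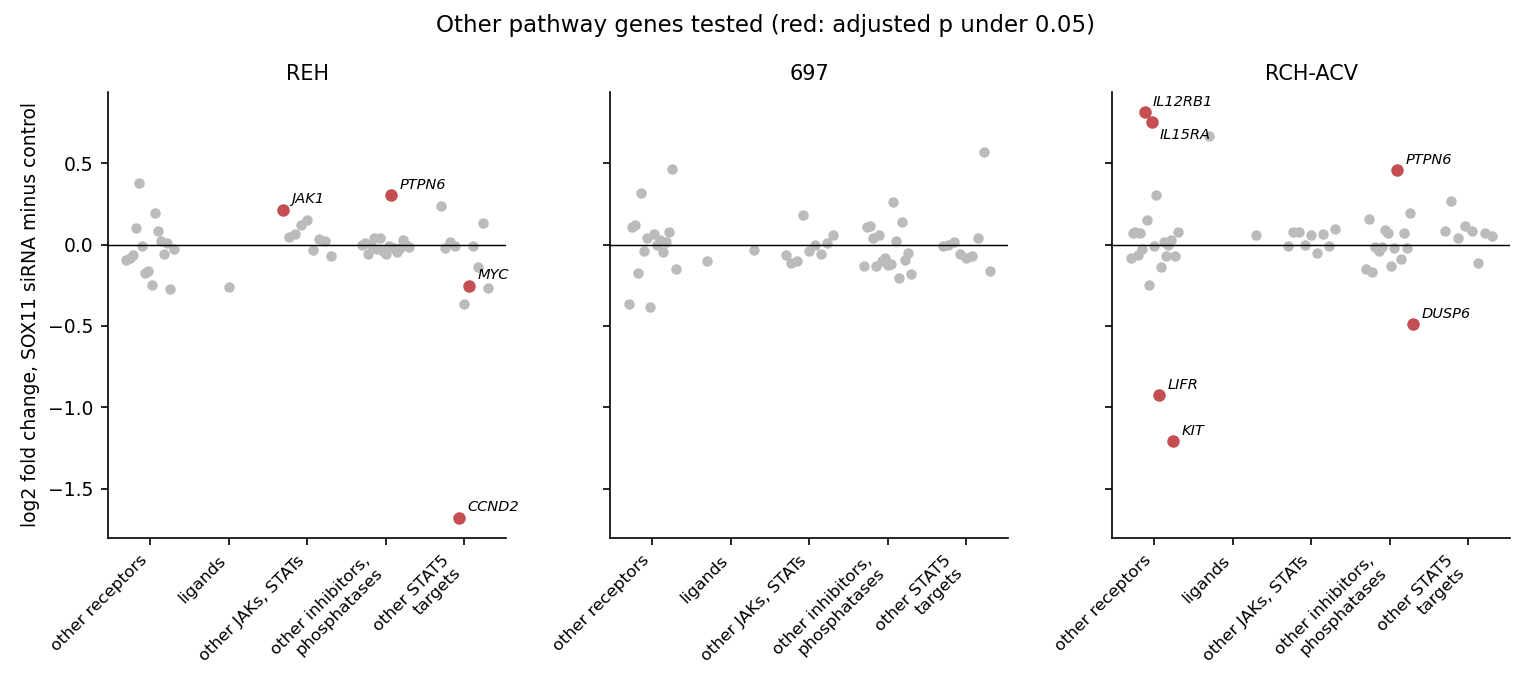
Log2 fold change with SOX11 siRNA of every other pathway gene tested, in REH, 697 and RCH-ACV, grouped by role on the x axis. Red points with names passed an adjusted p under 0.05: 4 genes in REH, none in 697 and 6 in RCH-ACV.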

How the data were processed

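Polyadenylated RNA was sequenced from 18 samples of 3 cell lines (3 biological replicates per line and siRNA, 300 nM, 48 h). The authors deposited raw counts per RefSeq transcript: per the study's methods and the submitters' processing notes, reads were checked with FastQC 0.10.1, trimmed with the FASTX Toolkit 0.0.14, aligned to hg19 with STAR 2.5.3a, discarded above 2 locations, and counted with HOMER 4.8. Transcripts were mapped to symbols (98.0% of transcripts, 99.0% of counts), keeping for each gene its transcript of largest summed count across all samples. No column of another sample was present.

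Each line was tested with edgeR 4.0.16 (R 4.3.3): TMM scaling, filterByExpr, quasi-likelihood fit, Benjamini-Hochberg adjustment over all genes tested, threshold 0.05. Control samples of the 3 lines were compared pairwise in a fit of 9 samples, and the line by siRNA interaction in a fit of 18. CPM values used TMM over all 18 samples. 95% intervals are the estimate and its SE under a normal approximation, and exact intervals of count ratios cover counting error only. Levels per kb used GENCODE v44 MANE lengths on hg19, and positions are from the same annotation. Promoters are from RefSeq (GRCh38.p14), matched for 8 of the 10 members, without *CRLF2* and *SOCS2*. Neighbours of *EPOR* were ranked on edgeR's log2 CPM, with a prior count of 2 scaled to library size. The scripts were tested on simulated data. Alternatives were other scaling, DESeq2 1.42.0, other filters, a replicate block, leaving out each library, 1 fit over all samples, another transcript choice and stricter thresholds. The members, lists and rules were chosen with earlier results of these data known, and the common fit and the fit without 2 libraries of 697 were added after seeing the data. The rule for named genes was all 10 members, plus those list genes that passed in any line. *IL7*, *FLT3LG*, *STAT5A*, *STAT5B*, *JAK3*, *PIM2*, *PIM3*, *BCL2L1*, *BCL6*, *MCL1* and *CDKN1A*, and the marker genes named, fall outside this rule and were chosen after their values were seen. The authors' own comparisons were not used here.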

Additional observations from a re-analysis of the deposited data

Results flagged for a closer look

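The effect of SOX11 siRNA on *IL2RG* differed between the lines in edgeR's interaction test over the 18 samples (adjusted p = 0.0139). The log2 fold changes were 0.05 (SE 0.04) in REH, 0.12 (SE 0.06) in 697 and 0.49 (SE 0.07) in RCH-ACV. The SOX11 siRNA samples were above all controls in each, as for 10.1%, 5.69% and 12.2% of all genes tested in these lines. The nearest SOX11 siRNA and control samples were at 143.111 and 143.038 CPM in REH and 102.188 and 102.165 CPM in 697. In RCH-ACV, control replicate 3 was the lowest of the controls at 60.2 CPM, against 71.1 and 72.5, and the result did not pass without it or without SOX11 siRNA replicate 1 or 2 of that line.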

How the results depend on the processing

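Of the members' fold changes and level differences, 964 of the values under alternatives kept their direction and side of the threshold, 31 lost a call, 6 gained one and 20 turned sign, none of which was called before. The cause was not tested where a result changed. The 697 calls were the least stable: 1 member passed with RLE size factors, library size alone, DESeq2 or no filter on low counts, 0 with an adjusted p under 0.01, and 0 to 1 when a library was left out. Over all genes, 697 gave 193 calls in 1 fit over 18 samples, 27 at 0.01, 198 without its 2 libraries that stood apart, and 25 to 71 with 1 library left out. In REH, 1 member passed with library size alone or no filter and 0 to 1 with a library left out, and all genes gave 313 with DESeq2, 241 in 1 fit, 275 at 0.01 and 299 to 523 with a library left out. RCH-ACV gave 582 with DESeq2, 406 at 0.01, and 386 (without SOX11 siRNA replicate 2) to 2522 (without SOX11 siRNA replicate 3). At an adjusted p under 0.01 with a log2 difference of at least 1, 4116, 3462 and 2698 genes differed for REH against 697, REH against RCH-ACV and 697 against RCH-ACV, and 4 members for 697 against RCH-ACV. The interaction gave 57 to 185 genes and 0 to 1 members with a library left out, and the common fit 908 to 1473 genes.

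The replicate numbers gave no steady sign of pairing. Deviations of same-numbered samples had correlations of -0.057 to 0.00080 for REH, -0.24 to 0.26 for 697, and -0.055 to 0.016 for RCH-ACV. With 3 samples in a group, this check cannot show that the samples were unpaired. With the replicate block, 697 gave 0 members and 29 genes, the common fit 823 genes and the interaction 45, and *JAK2* in REH against 697 had -0.0016.

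Sign changes concerned differences that were not called. *IL7R* in REH against 697 had 0.068 with library size alone (adjusted p = 0.0473), and *JAK2* -0.00049 with DESeq2. *PIM1* in 697 had 0.083 without the 2 libraries that stood apart. With libraries left out, *CISH* ranged from -0.21 to 0.43 for REH. The ranges for 697 were -0.46 to 0.41 (*CISH*), -0.019 to 0.064 (*FLT3*) and -0.13 to 0.071 (*PIM1*), and *PIM1* had -0.20 to 0.048 for RCH-ACV. In the common fit *PIM1* had -0.012 to 0.035 and *SOCS1* -0.22 to 0.057. For REH against 697, *JAK2* had -0.044 to 0.030 and *CISH* -0.76 to 0.10. Counts of 0 to 22 per library limit *SOCS1*, *CISH* in REH and 697, and *EPOR* in 697.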
